A study of Mus musculus with 24 samples.

Results

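The receptors through which macrophages sense IFNg, type I interferon (IFN), IL4 and IL10 were described across CITED2-deficient and wild-type mouse macrophages, together with Ifnb1, the gene of IFN-beta. The genes were taken by symbol from the gene table of the study, which gave 10 genes (Ifngr1, Ifngr2, Ifnar1, Ifnar2, Ifnb1, Il4ra, Il13ra1, Il2rg, Il10ra and Il10rb) of 43629, and all 10 were among the 18637 genes that passed the filter on low values.

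RNA sequencing was made from bone marrow-derived macrophages (BMDMs), which are macrophages grown in culture from marrow precursors, of C57BL/6 mice at postnatal week 10. There were 8 groups of 3 libraries: CITED2-KO cells given LPS, IFNg or IL4 or kept as control, and WT cells given LPS, IFNg or IL4 or kept as control. LPS is the bacterial cell wall component sensed by TLR4. The labels do not give the way the gene was deleted, nor doses, times or the origin of the replicates. Each p-value therefore measures the spread between these libraries alone, which may be technical.

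Each of these cytokines binds a pair of receptor chains, and the chains carry Janus kinases that phosphorylate STAT proteins. IFNGR1 and IFNGR2 form the IFNg receptor. IFNAR1 and IFNAR2 form the type I IFN receptor, whose downstream factors include STAT2 and IRF9. IL4 binds IL4Ralpha (Il4ra), which then recruits either the common gamma chain (Il2rg) or IL13Ralpha1 (Il13ra1), and both complexes signal through STAT6. IL10 binds IL10Ralpha (Il10ra) and the accessory chain IL10Rbeta (Il10rb), which signal mainly through STAT3. Macrophages secrete IFN-beta after TLR4 stimulation, and the secreted protein acts back on the same cells through the type I IFN receptor.

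Levels are the normalised read counts that the authors deposited, in which each library's reads were multiplied by 1 factor. Each library held between 1478507 and 73409343 reads, with a median of 29551522.5. The shallowest library was KO LPS replicate 1, in which 1 read is worth 23.6 in normalised count and 3 reads are worth 70.9. Cited2, the deleted gene, had 1.35% of the WT level in KO cells with LPS, 0.558% with IFNg, 1.02% with IL4 and 1.26% in control. The summed level of 7 macrophage marker genes lay between 100902 and 163341 in every library, which was above the sum of any other marker list. Among the other lists, T and NK cell markers summed to 12.2 to 1356, B cell markers to 64.4 to 1009, neutrophil markers to 248 to 2468, fibroblast markers to 233 to 506, dendritic cell markers to at most 152 and mast cell markers to at most 13.5. In bulk RNA, fewer cells of a type and less RNA per cell cannot be told apart.

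Of the 10 genes, 4 lie in 1 cluster on mouse chromosome 16 (GRCm38), all on the plus strand and within 193 kb: Ifnar2 (91372783 to 91405589), Il10rb (91406164 to 91425834), Ifnar1 (91485238 to 91507441) and Ifngr2 (91547072 to 91565623). Ifngr1 lies apart on chromosome 10 (19591949 to 19610229, plus strand) and Ifnb1 on chromosome 4 (88522025 to 88522774, minus strand). Il4ra is on chromosome 7 (125552120 to 125579474, plus strand) and Il10ra on chromosome 9 (45253837 to 45269149, minus strand). Il13ra1 (36112110 to 36171259, plus strand) and Il2rg (101264378 to 101268255, minus strand) are both on chromosome X. The annotated read-through gene Gm21970 overlaps Ifnar2 and Il10rb, and Gm20489 overlaps Il2rg, each on the same strand, and both were listed at 0 reads in every library. Il4ra has an antisense partner (Gm44876), and Il10ra overlaps a pseudogene (Gm20612) and a microRNA gene (Mir7086). Whether strand was used in counting is not given in the sources used here, so reads of such partners cannot be told apart from those of the receptor.

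The 250 bases before the annotated start site were available from RefSeq (GRCm38.p6) for 8 of the 10 genes; Il10ra and Il10rb had no entry. Both strands of these windows were searched for the letters AANNGAAA (the core bound by interferon regulatory factors), for the STAT6 type of site (TTC and GAA with 4 free bases between) and for an NF-kB type of site (GGGA and TTCC with 2 free bases between). Both windows with a match are shown so that the matched letters can be read beside the levels of these genes, and each is written 5′ to 3′ on the gene's strand with the matches in capitals.
Ifnb1, chr4:88522795-88523044, minus strand: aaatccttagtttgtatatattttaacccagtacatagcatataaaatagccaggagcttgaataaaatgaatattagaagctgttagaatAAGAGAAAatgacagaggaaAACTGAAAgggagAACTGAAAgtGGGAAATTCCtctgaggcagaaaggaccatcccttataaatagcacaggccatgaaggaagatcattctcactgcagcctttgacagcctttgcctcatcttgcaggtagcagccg
Ifngr2, chr16:91546809-91547058, plus strand: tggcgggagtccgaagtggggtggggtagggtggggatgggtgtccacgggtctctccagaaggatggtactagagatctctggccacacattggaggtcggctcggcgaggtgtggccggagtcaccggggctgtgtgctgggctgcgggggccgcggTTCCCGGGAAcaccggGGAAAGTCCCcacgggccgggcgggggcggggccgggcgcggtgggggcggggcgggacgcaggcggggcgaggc
The Ifnb1 window held 3 matches to AANNGAAA, whose first bases lie 159, 139 and 126 bases before the start site, and 1 match to the NF-kB type at 116 bases. The Ifngr2 window held 1 match to the STAT6 type at 91 bases and, on the other strand, 1 match to the NF-kB type at 75 bases. Over all 32851 promoter windows of this length, 21.31% held AANNGAAA, 0.8493% held it at least 3 times, 5.854% held the STAT6 type and 1.208% held the NF-kB type. The windows of Ifngr1, Ifnar1, Ifnar2, Il4ra, Il13ra1 and Il2rg held no match to any of them. A match describes letters and does not show binding.

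LPS raised nearly all of these genes in both genotypes. Of the 10 genes, 9 rose in KO cells and none fell, against 57% of all genes tested called in either direction. In WT cells 9 rose and 1 (Ifngr1) fell, against 53.3% of all genes tested. The median change over the 9 receptor chains was 2.02 on the log2 scale in KO cells, where the median of all genes was -0.21, and 1.92 in WT cells, where the median of all genes was -0.06. Calls are those with a Benjamini-Hochberg adjusted p below 0.05 from limma on log2(value + 1), a scale that understates the change of low genes. With RPM (recovered reads scaled to the same library total) in place of the deposited scale, the median gene moved by -0.85 in KO cells and -0.75 in WT cells, and the split was 7 raised and 3 lowered in KO cells and 8 raised and 2 lowered in WT cells, with Ifngr2 and Il10rb turned in KO cells and Il10rb in WT cells.

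IFNg also moved most of them, in more mixed directions. In KO cells 7 rose and 2 fell, against 46% of all genes tested called, and in WT cells 7 rose and 3 fell, against 45.1%. By RPM, which moved the median gene by -0.44 in both genotypes, 6 rose and 4 fell in KO cells, and 5 rose and 4 fell in WT cells. IL4 moved fewer. In KO cells 6 rose and 1 fell, against 23.2% of all genes tested called, and in WT cells 5 rose and 1 fell, against 20.1%. The comparisons of 1 genotype share its control libraries.

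**Figure D1:**
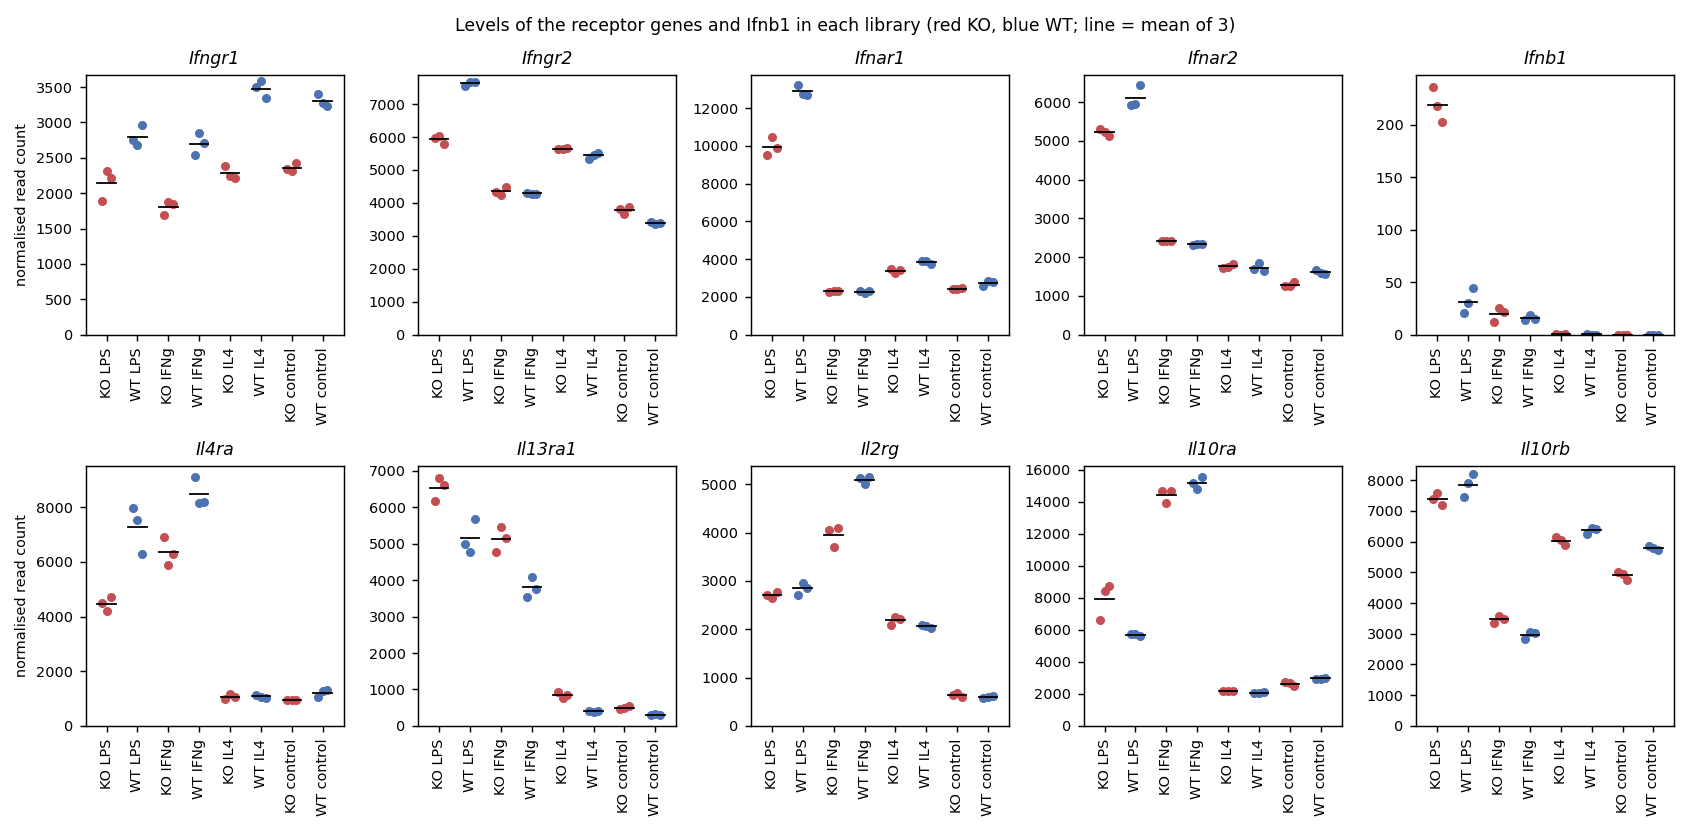
Normalised read count (linear axis from 0) of each of the 10 genes in each of the 24 libraries, by group; red points are KO libraries, blue points WT libraries and the line is the mean of 3. Ifngr1 is lower in every KO group than in every WT group, and Ifnb1 is highest in KO LPS, at 203 to 236.

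**Figure D2:**
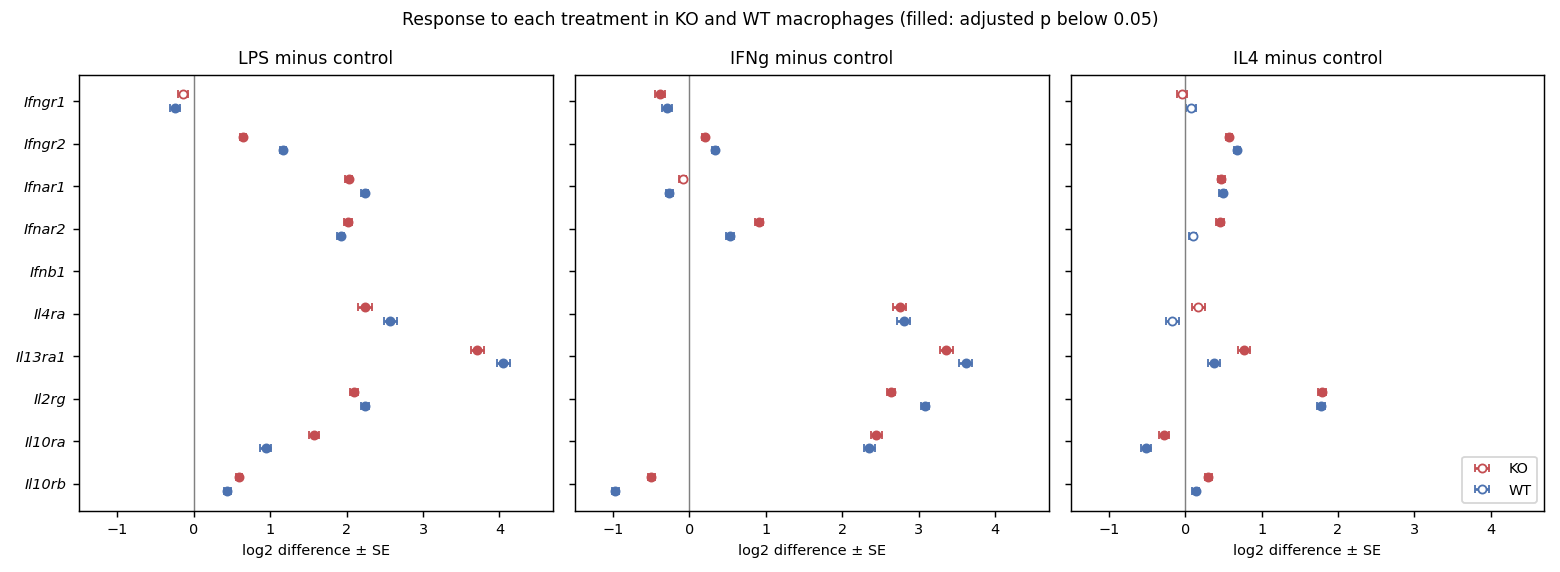
Log2 difference of each treatment from control in KO (red) and WT (blue) cells, with its standard error from limma; filled points have an adjusted p below 0.05. Ifnb1 is not drawn because no control library held a read of it. Il13ra1 shows the longest shift with LPS, at 3.71 in KO and 4.05 in WT cells.

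Ifnb1 had no read in any of the 3 KO control or the 3 WT control libraries. With LPS its level was 236, 218 and 203 in the KO libraries, from 10, 355 and 162 reads, and 20.4, 29.8 and 44.0 in the WT libraries, from 5, 47 and 37 reads. The KO LPS libraries were therefore all above the WT LPS libraries, including the shallow replicate. The mean was 219 ± 16.8 in KO LPS and 31.4 ± 11.9 in WT LPS (SD, n = 3 each), a 6.98-fold difference, or 2.83 ± 0.43 (SE) on the log2 scale (limma adjusted p = 2.5e-05). Across the alternatives the adjusted p lay between 2.6e-17 and 0.012.

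Set against a floor of 3 reads over the 3 control libraries, Ifnb1 was at least 272-fold higher with LPS than in control in KO cells and at least 39.9-fold higher in WT cells. With IFNg it was at 11.9, 24.9 and 21.4 in KO libraries and 14.3, 18.8 and 14.6 in WT libraries, and the genotypes overlapped. These levels were at least 24.1-fold above control in KO cells and at least 20.2-fold above it in WT cells. With IL4 the KO libraries held 1, 0 and 1 reads and the WT libraries 1, 0 and 0, which is at or under the floor. The response to LPS differed between genotypes by 2.83 ± 0.61 on the log2 scale (limma adjusted p = 0.003), but this value depends on the pseudocount given to controls without reads, and neither edgeR nor DESeq2 on the recovered reads called it.

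Among the other ligands of these receptors, 7 of 25 passed the filter on low values. The listed Ifna genes other than Ifna13, whose reads were not summarised, held at most 4 reads in any library, and Ifnk at most 3. Il10 was lower in KO than in WT cells with LPS, with a level of 1500 ± 78.0 in KO and 4827 ± 467 in WT libraries (SD, n = 3 each; log2 difference -1.68 ± 0.48, limma adjusted p = 0.013). It was also lower in KO cells with IL4 (-1.64, 0.031), and was not called in control (-1.18, 0.19) or with IFNg (0.77, 0.46). The response of Il10 to LPS did not differ between genotypes past the threshold (-0.50, 0.73). Il15, whose receptor uses the common gamma chain, was higher in KO than in WT cells with LPS (log2 difference 0.30, limma adjusted p = 0.0063), with IFNg (0.25, 0.041) and with IL4 (0.71, 3.1e-07). Ifng reached at most 36 reads in a library and Il4 at most 4, and neither differed between genotypes past the threshold under any treatment.

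Ifnar1, the chain of the type I IFN receptor that carries TYK2, was at 9497, 10484 and 9894 in KO LPS libraries and 13224, 12764 and 12694 in WT LPS libraries. All LPS libraries of both genotypes were above every other library, and the KO LPS libraries were all below the WT LPS libraries. The level with LPS was 4.08 times that of control in KO cells and 4.72 times in WT cells. The difference between KO and WT with LPS was -0.37 ± 0.05 on the log2 scale (limma adjusted p = 2.1e-06).

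In control cells Ifnar1 was at 2399, 2429 and 2487 in KO libraries and 2569, 2821 and 2809 in WT libraries, a log2 difference of -0.16 (limma adjusted p = 0.033). With IL4 it was at 3479, 3242 and 3443 in KO libraries and 3875, 3879 and 3755 in WT libraries, a log2 difference of -0.18 (limma adjusted p = 0.013). Both were small, did not overlap between genotypes, and lost the call in edgeR and without any 1 of several replicates (KO control replicates 1 and 2 and WT control replicates 2 and 3 for control, and KO IL4 replicate 2 and WT IL4 replicates 1 and 2 for IL4). The control call was also lost with a term for the replicate number (adjusted p = 0.0506) and in a fit of the 6 control libraries alone (0.11). With IFNg, Ifnar1 averaged 2293 in KO and 2270 in WT cells, and the libraries overlapped. IFNg lowered it relative to control in WT cells (log2 -0.27, limma adjusted p = 3.8e-05) and not past the threshold in KO cells (log2 -0.09, limma adjusted p = 0.13), and the difference between these responses was not past the threshold (0.18 ± 0.07, adjusted p = 0.25). The KO value was called with median centring (-0.11), in a fit of the groups compared alone and by RPM (-0.53).

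Ifnar2, the other chain, which binds the JAK1 kinase, followed Ifnar1 with LPS and parted from it with IFNg. With LPS it was at 5316, 5219 and 5113 in KO libraries and 5919, 5947 and 6449 in WT libraries (log2 difference -0.23 ± 0.05, limma adjusted p = 0.0017), a call that was lost in a fit of the LPS libraries alone (adjusted p = 0.057). In control it was at 1258, 1249 and 1353 in KO libraries and 1673, 1592 and 1568 in WT libraries (log2 difference -0.32 ± 0.05, limma adjusted p = 7.2e-05). The genotypes did not overlap in either condition, and KO was the lower.

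With IFNg Ifnar2 was at 2413, 2411 and 2409 in KO libraries and 2305, 2338 and 2343 in WT libraries, a log2 difference of 0.05 that did not pass the threshold (limma adjusted p = 0.72). With IL4 it averaged 1764 ± 54.9 in KO and 1723 ± 104 in WT cells (SD, n = 3 each), and the libraries overlapped. The rise with IFNg over control was 0.91 in KO and 0.53 in WT cells on the log2 scale, and the rise with IL4 was 0.46 in KO cells while WT cells had 0.10, which was not past the threshold. The responses differed between genotypes by 0.37 ± 0.07 for IFNg (limma adjusted p = 0.0021) and by 0.36 ± 0.07 for IL4 (limma adjusted p = 0.0023). By RPM, the rise with IFNg in WT cells was 0.09 and was not called.

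Ifngr1, the ligand-binding chain of the IFNg receptor, differed between genotypes in every condition. It was at 1890, 2320 and 2210 in KO LPS libraries and 2752, 2676 and 2962 in WT LPS libraries. With IFNg it was at 1694, 1870 and 1844 in KO and 2540, 2846 and 2713 in WT libraries. With IL4 it was at 2388, 2249 and 2209 in KO and 3507, 3584 and 3344 in WT libraries, and in control at 2337, 2311 and 2421 in KO and 3400, 3279 and 3229 in WT libraries. No KO library of any treatment reached the lowest WT library.

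The log2 difference between KO and WT for Ifngr1 was -0.39 with LPS (limma adjusted p = 8.2e-05), -0.58 with IFNg (6.5e-07), -0.61 with IL4 (2e-07) and -0.49 in control (1e-05), each with a standard error of 0.06. In a fit of the 6 LPS libraries alone the difference with LPS was not called. None of the 3 responses differed between genotypes past the threshold (limma adjusted p from 0.59 to 0.94). IFNg lowered it by 0.39 in KO and 0.29 in WT cells on the log2 scale, and the largest mean over the 8 groups was 1.93 times the smallest. LPS lowered it in WT cells (log2 -0.24, limma adjusted p = 0.0028), and in KO cells the change was -0.14 (adjusted p = 0.063) and was called without KO LPS replicate 2, where it was -0.20. It was also called when genes needed a value of at least 10 in 3 libraries, with median centring, and by RPM, where it was -1.01.

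Ifngr1 starts 1866 kb from the end of Cited2 on chromosome 10, so its neighbours among the genes tested were read beside it. Arfgef3, 1 of the 3 nearest tested genes before it, was lower in KO than in WT cells in all conditions. Its log2 difference was -0.98 with LPS, -0.84 with IFNg, -1.16 with IL4 and -0.92 in control. Tnfaip3, an inhibitor of NF-kB signalling, was the nearest tested gene before Ifngr1. It was higher in KO than in WT cells in control (log2 0.33, limma adjusted p = 1.9e-05) and with IL4 (0.19, 0.0083). With IFNg it was lower (-0.16, 0.032), and with LPS it was not called (0.03, 0.76). Perp, Il22ra2 and Pex7 were not called in any condition, and Slc35d3 was lower with IL4 (log2 -1.45, limma adjusted p = 0.029) and not called elsewhere. The part of chromosomal position in the Ifngr1 difference was not tested.

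Ifngr2, the chain of the IFNg receptor that carries JAK2, rose with all 3 treatments in both genotypes on the deposited scale. It was at 5977, 6027 and 5798 in KO LPS libraries and 7554, 7679 and 7682 in WT LPS libraries, and at 3827, 3667 and 3890 in KO control and 3427, 3372 and 3378 in WT control libraries. KO libraries were thus lower than WT with LPS (log2 difference -0.36 ± 0.04, limma adjusted p = 7.9e-08) and higher than WT in control (0.16 ± 0.04, adjusted p = 0.0055). The control difference was 0.10 and not called by RPM. The rise with LPS was 0.65 in KO and 1.17 in WT cells on the log2 scale, and these responses differed by -0.53 ± 0.05 (limma adjusted p = 1.8e-07).

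IL4 raised Ifngr2 to 5632, 5641 and 5679 in KO libraries and to 5346, 5466 and 5515 in WT libraries, against control a log2 change of 0.57 in KO and 0.68 in WT cells. With IFNg the mean was 4353 ± 116 in KO and 4287 ± 4.20 in WT cells (SD, n = 3 each), a log2 change from control of 0.20 in KO and 0.34 in WT cells, which differed past the threshold by DESeq2 alone. Neither treatment gave a difference between genotypes past the threshold. By RPM the sign of 3 of these changes turned: LPS gave -0.22 in KO cells, and IFNg gave -0.24 in KO and -0.10 in WT cells.

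Il4ra, the chain that binds IL4 and is shared by both IL4 receptor complexes, rose with LPS and with IFNg and was not called with IL4. With IFNg it was at 6918, 5892 and 6293 in KO libraries and 9101, 8138 and 8170 in WT libraries. With LPS it was at 4489, 4204 and 4704 in KO and 7953, 7521 and 6303 in WT libraries. With IL4 it was at 979, 1151 and 1064 in KO and 1133, 1070 and 1033 in WT libraries. The first 2 conditions separated the genotypes completely, with KO lower, and with IL4 they overlapped.

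The log2 difference between KO and WT for Il4ra was -0.70 with LPS (limma adjusted p = 1.7e-06), -0.41 with IFNg (0.002), -0.02 with IL4 (0.97) and -0.36 in control (0.0078). The control values were 955, 940 and 934 in KO and 1063, 1259 and 1331 in WT libraries, and without WT control replicate 3, or in a fit of the 6 control libraries alone, that call was lost. The rise over control was 2.24 in KO and 2.57 in WT cells with LPS, and 2.75 in KO and 2.80 in WT cells with IFNg, on the log2 scale. IL4 changed it by 0.17 in KO cells (limma adjusted p = 0.18) and by -0.17 in WT cells (adjusted p = 0.21), and the WT value was -0.26 and called without WT control replicate 1. None of the 3 responses of Il4ra differed between genotypes past the threshold. The LPS value of -0.33 (limma adjusted p = 0.099) was called by edgeR, by RPM and without WT LPS replicate 3, and the IL4 value of 0.34 (0.17) without WT control replicate 1.

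Il13ra1, the chain that with Il4ra forms the receptor for both IL4 and IL13, was higher in KO than in WT cells in every condition. With IL4 it was at 938, 762 and 858 in KO libraries and 419, 383 and 407 in WT libraries, a log2 difference of 1.08 ± 0.08 (limma adjusted p = 8e-10). In control it was at 460, 481 and 557 in KO and 302, 324 and 303 in WT libraries, a log2 difference of 0.68 (adjusted p = 2.6e-06). No KO library fell within the WT range in these conditions, and KO control libraries were also above all WT libraries given IL4.

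With LPS Il13ra1 was at 6166, 6813 and 6601 in KO libraries and 5006, 4786 and 5671 in WT libraries, a log2 difference of 0.34 (limma adjusted p = 0.0037) that was not called by RPM or in a fit of the LPS libraries alone. With IFNg it was at 4769, 5448 and 5160 in KO and 3544, 4096 and 3768 in WT libraries, a log2 difference of 0.43 (adjusted p = 0.00086). Over control it was 13.1-fold higher with LPS in KO cells and 16.6-fold in WT cells, and 10.3-fold higher with IFNg in KO cells and 12.3-fold in WT cells. Its largest group mean was 21.1 times its smallest, the widest range of the 9 receptor chains. The responses did not differ between genotypes past the threshold for LPS (-0.34 ± 0.12, limma adjusted p = 0.077), IFNg (-0.25, 0.47) or IL4 (0.39 ± 0.12, 0.07). The LPS value was called by RPM (-0.44, adjusted p = 0.0059). The IL4 value was called by DESeq2 and without KO control replicate 3 or KO IL4 replicate 2.

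Il2rg, the common gamma chain shared with the receptors for IL2, IL7, IL9, IL15 and IL21, rose most with IL4 of the 9 receptor chains described here. Its level with IL4 was 2089, 2260 and 2210 in KO libraries and 2083, 2074 and 2022 in WT libraries, and in control 634, 671 and 595 in KO and 581, 601 and 613 in WT libraries. The IL4 rise was 1.79 in KO and 1.78 in WT cells on the log2 scale, and the 2 differed by 0.00 ± 0.07. With LPS it averaged 2711 ± 66.3 in KO and 2846 ± 131 in WT cells (SD, n = 3 each), with overlapping libraries and a log2 difference of -0.07 (limma adjusted p = 0.39) that was -0.23 and called by RPM.

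With IFNg Il2rg was at 4051, 3711 and 4089 in KO libraries and 5124, 5003 and 5153 in WT libraries. All KO libraries were below all WT libraries, with a log2 difference of -0.37 ± 0.05 (limma adjusted p = 2.4e-05). The response to IFNg was 2.64 in KO and 3.09 in WT cells, and these differed by -0.45 ± 0.07 (limma adjusted p = 0.0005). Beside this, T and NK cell markers with IFNg summed to 902 to 1015 in KO and 659 to 703 in WT libraries. Nearly all of that sum was Lck, with means of 884 in KO and 614 in WT cells. Cd3d and Cd3e were at 3.9 and 3.7 in KO and at 0.6 and 1.4 in WT cells. Cd247 and Klrb1c went the other way, at 33.4 and 2.6 in KO and at 57.3 and 6.2 in WT cells. Dendritic cell markers with IFNg summed to 44.1 to 56.2 in KO and 128 to 152 in WT libraries, and most of that sum was Xcr1, with a mean of 40.3 in KO and 126 in WT cells. The part of either marker list in the Il2rg difference was not tested.

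Il10ra, the ligand-binding chain of the IL10 receptor, had the highest level per kilobase of exon of the 10 genes with IFNg, at 4121 ± 130 in KO and 4341 ± 106 in WT cells (SD, n = 3 each). Its level was 14680, 13890 and 14676 in KO IFNg libraries and 15177, 14820 and 15562 in WT IFNg libraries. These did not overlap but gave a log2 difference of -0.08 that was not called (limma adjusted p = 0.66). With LPS it was at 6615, 8446 and 8716 in KO libraries and 5711, 5765 and 5606 in WT libraries. All KO LPS libraries were above all WT LPS libraries, and the lowest of them was the shallow replicate, with 280 reads of Il10ra.

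The log2 difference between KO and WT for Il10ra with LPS was 0.47 ± 0.07 (limma adjusted p = 1.1e-05). In a fit of the LPS libraries alone it was not called. The response to LPS was 1.57 in KO and 0.94 in WT cells on the log2 scale, a difference of 0.63 ± 0.09 (limma adjusted p = 5.3e-05). IL4 lowered Il10ra, to 2150, 2185 and 2195 in KO and to 2083, 2049 and 2096 in WT libraries, a log2 change from control of -0.28 in KO and -0.52 in WT cells. These 2 changes differed past the threshold by DESeq2 and in a fit of the groups compared alone, and not in limma over all libraries. In control the mean was 2644 ± 126 in KO and 2968 ± 44.8 in WT cells (SD, n = 3 each; log2 difference -0.17, limma adjusted p = 0.17), and this difference was called by DESeq2 (-0.16) and by RPM (-0.23).

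Il10rb, the accessory chain that IL10 shares with the IL22 and lambda IFN receptors, fell with IFNg, the opposite of Il10ra. With IFNg it was at 3344, 3586 and 3471 in KO libraries and 2817, 3051 and 3010 in WT libraries, and in control at 5020, 4932 and 4755 in KO and 5849, 5796 and 5720 in WT libraries. KO was thus higher than WT with IFNg (log2 0.23 ± 0.04, limma adjusted p = 0.00092) and lower in control (-0.24 ± 0.04, adjusted p = 0.00064). The fall with IFNg was -0.50 in KO and -0.97 in WT cells, and these responses differed by 0.47 ± 0.06 (limma adjusted p = 3.8e-05).

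With LPS Il10rb averaged 7383 ± 185 in KO and 7855 ± 369 in WT cells (SD, n = 3 each), and the libraries overlapped. The rise over control was 0.59 in KO and 0.44 in WT cells, but by RPM it was -0.28 in KO and -0.33 in WT cells, so its direction depends on the scaling. With IL4 it averaged 6035 ± 127 in KO and 6371 ± 101 in WT cells, a log2 rise over control of 0.30 in KO and 0.14 in WT cells. By RPM KO was lower than WT past the threshold with LPS (-0.25) and with IL4 (-0.17), which was not so on the deposited scale. The WT rise with IL4 was no longer called with median centring or without WT control replicate 2 or 3 or WT IL4 replicate 2 or 3.

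**Figure D3:**
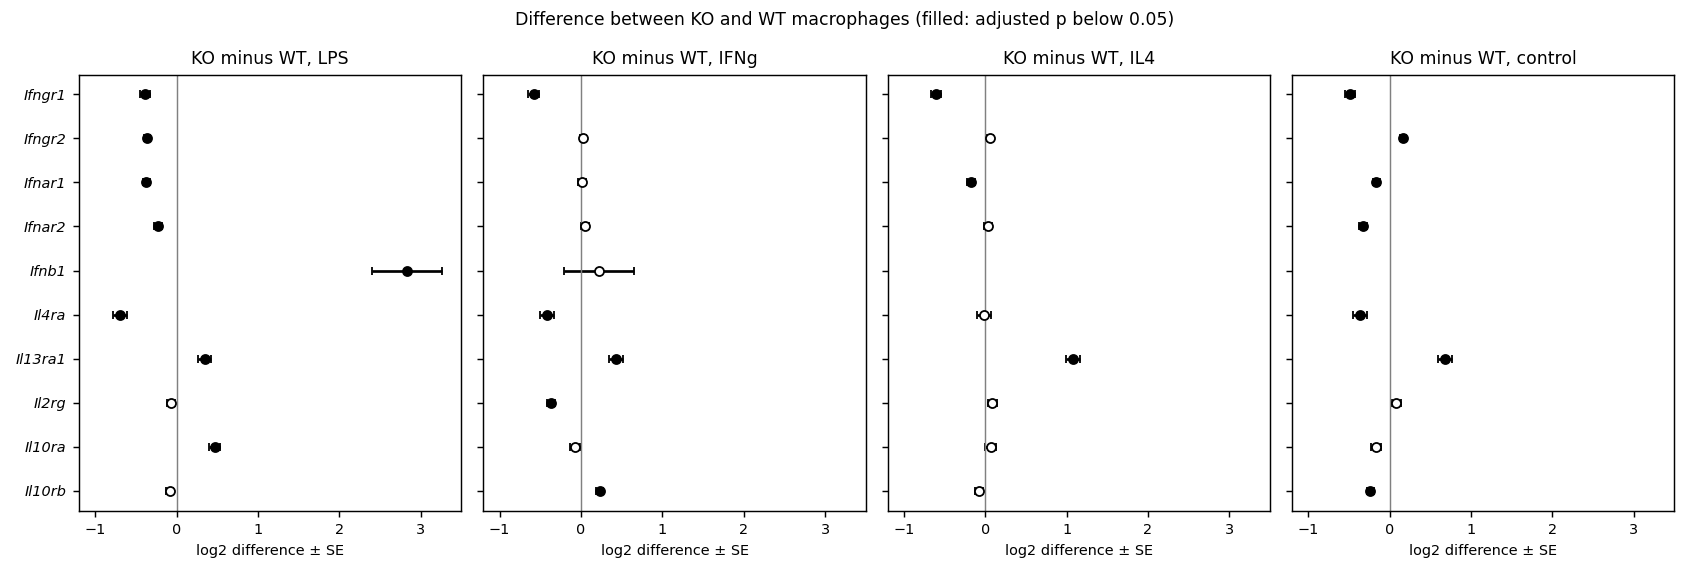
Log2 difference of KO minus WT for each gene in each condition, with its standard error from limma; filled points have an adjusted p below 0.05. Ifnb1 is not drawn for IL4 and control, where it had at most 1 read in a library. Ifngr1 lies left of 0 and Il13ra1 right of 0 in all 4 panels, and Ifnb1 with LPS lies at 2.83.

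Between genotypes, 8 of the 10 genes were called with LPS, 5 with IFNg, 3 with IL4 and 7 in control. With LPS 3 were higher (Ifnb1, Il13ra1, Il10ra) and 5 lower in KO cells (Ifngr1, Ifngr2, Ifnar1, Ifnar2, Il4ra), against 22.2% of all genes tested called. With IFNg 2 were higher (Il13ra1, Il10rb) and 3 lower (Ifngr1, Il4ra, Il2rg), against 9.05%. With IL4 1 was higher (Il13ra1) and 2 lower (Ifngr1, Ifnar1), against 9.29%. In control 2 were higher (Ifngr2, Il13ra1) and 5 lower (Ifngr1, Ifnar1, Ifnar2, Il4ra, Il10rb), against 7.16%. By RPM the split was 2 higher and 7 lower with LPS and 1 higher and 6 lower in control. In the 6 LPS libraries alone, 4 genes were called. The median log2 difference over the 9 receptor chains was -0.23 with LPS, 0.01 with IFNg, 0.04 with IL4 and -0.17 in control, where the median of all genes was -0.06, -0.03, 0.00 and 0.00.

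B cell markers also stood apart in control, with a sum of 116 to 123 in KO and 906 to 1009 in WT libraries. Most of that sum was Ighm, with a mean of 96.0 in KO and 958 in WT cells, while Cd79a was at 6.58 in KO and 1.15 in WT cells. Some other marker lists were apart too. With LPS, T and NK cell markers, mostly Lck, summed to 1063 to 1356 in KO and 580 to 607 in WT libraries. With IL4, T and NK cell markers summed to 42.9 to 52.6 in KO and 18.9 to 22.6 in WT libraries. Of these, Klrb1c went the other way (1.91 in KO, 3.63 in WT). B cell markers summed to 64.4 to 80.9 in KO and 86.4 to 106 in WT libraries. Among them, Cd79a (3.53 in KO, 0 in WT) and Ms4a1 (2.33 in KO, 0.96 in WT) went the other way. Dendritic cell markers summed to 11.2 to 12.8 in KO and 21.7 to 30.6 in WT libraries. Neutrophil and fibroblast sums with IL4 were also lower in KO libraries. With IFNg, B cell markers summed to 73.5 to 134 in KO and 145 to 173 in WT libraries. Among them, Cd79a (5.86 in KO, 1.08 in WT), Cd79b, Ms4a1 and Vpreb1 had the higher mean in KO cells. Fibroblast markers with IFNg summed to 239 to 293 in KO and 301 to 352 in WT libraries. In control, neutrophil markers summed to 967 to 1098 in KO and 1111 to 1370 in WT libraries. T and NK cell markers there summed to 31.9 to 38.7 in KO and 12.2 to 30.3 in WT libraries. No gene of that list had more than 22 reads in a control library. Ncr1 (0.35 in KO, 1.22 in WT) and Klrb1c (3.36 in KO, 4.08 in WT) went the other way. The part of any of these lists in the differences between genotypes was not tested.

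The response to a treatment differed between genotypes for 4 of the 10 genes with LPS, for 3 with IFNg and for 1 with IL4, against 8.79%, 2.5% and 3.61% of all genes tested. With LPS these were Ifnb1 and Il10ra, with the larger response in KO cells, and Ifngr2 and Ifnar1, with the smaller. The Ifnar1 value was -0.21 ± 0.07 (limma adjusted p = 0.0496). It was no longer called by edgeR, with median centring, without a filter on low values, with a term for the replicate number, in a fit of the groups compared alone, or without any of KO control replicates 1, 2 and 3, KO LPS replicates 1 and 3, WT control replicate 1 and WT LPS replicates 1 and 2. By RPM, which moved the median gene of this comparison by -0.10, 2 of the 10 genes had the larger and 5 the smaller response to LPS in KO cells.

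Levels per kilobase of exon allow the chains of a receptor to be set side by side in the same library. Ifngr2 over Ifngr1 had a log2 ratio of 1.07 ± 0.16 in KO and 1.05 ± 0.07 in WT cells with LPS, 0.87 ± 0.09 in KO and 0.26 ± 0.08 in WT cells with IFNg, 0.90 ± 0.06 in KO and 0.24 ± 0.07 in WT cells with IL4, and 0.28 ± 0.02 in KO and -0.37 ± 0.03 in WT cells in control (SD, n = 3 each). The less abundant transcript was therefore Ifngr1 in all KO groups, and Ifngr2 in WT control alone of the 8 groups. KO and WT libraries did not overlap with IFNg, with IL4 or in control, and overlapped with LPS.

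Ifnar2 over Ifnar1 had a log2 ratio of -0.10 ± 0.09 in KO and -0.24 ± 0.09 in WT cells with LPS, 0.91 ± 0.02 in KO and 0.87 ± 0.05 in WT cells with IFNg, -0.11 ± 0.06 in KO and -0.32 ± 0.07 in WT cells with IL4, and -0.09 ± 0.04 in KO and 0.07 ± 0.12 in WT cells in control. KO libraries were all above WT libraries with IL4 and all below them in control, and the genotypes overlapped with LPS and with IFNg. Il13ra1 over Il2rg, the chains that complete the alternative IL4 receptors, was 0.63 ± 0.09 in KO and 0.22 ± 0.15 in WT cells with LPS, -0.26 ± 0.16 in KO and -1.06 ± 0.12 in WT cells with IFNg, -1.999 ± 0.207 in KO and -2.99 ± 0.07 in WT cells with IL4, and -0.98 ± 0.22 in KO and -1.59 ± 0.06 in WT cells in control. In all 4 conditions every KO library was above every WT library. Il10rb over Il10ra turned with treatment, at -2.18 ± 0.09 in KO and -2.48 ± 0.08 in WT cells with IFNg, -0.21 ± 0.22 in KO and 0.34 ± 0.08 in WT cells with LPS, 1.35 ± 0.04 in KO and 1.49 ± 0.03 in WT cells with IL4, and 0.77 ± 0.03 in KO and 0.84 ± 0.04 in WT cells in control. These ratios are given without a test and do not depend on the scaling of a library.

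**Figure D4:**
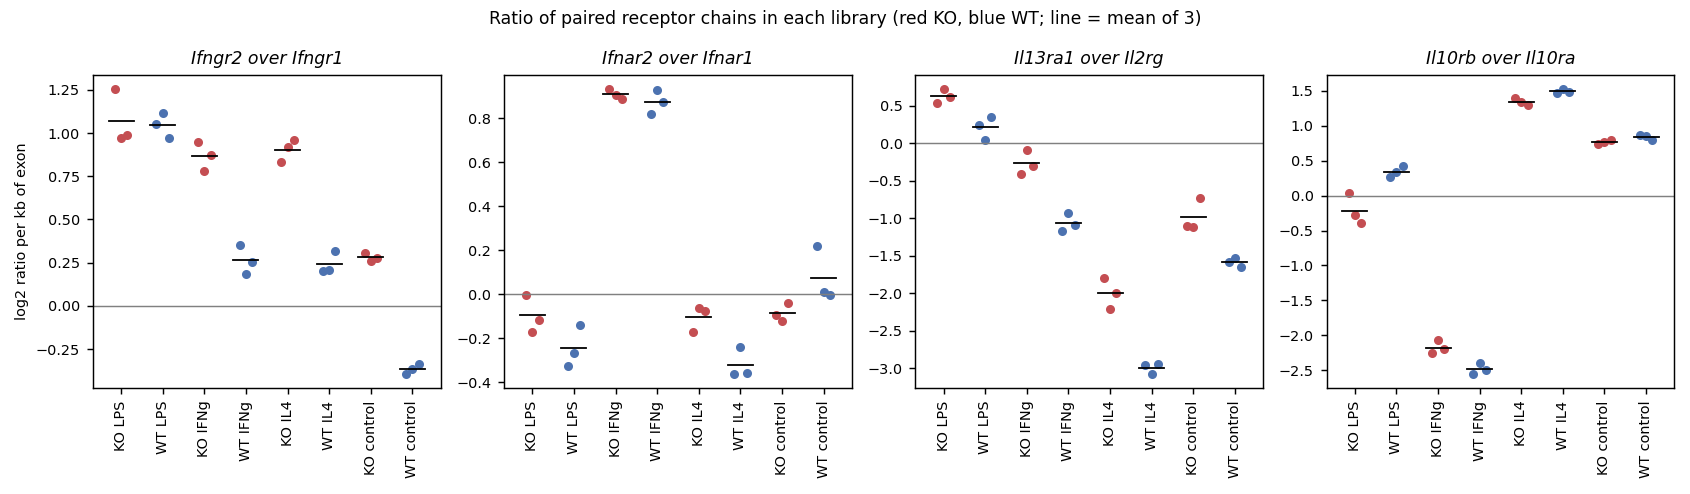
Log2 ratio of the levels per kilobase of exon of paired receptor chains in each of the 24 libraries, by group; red points are KO libraries, blue points WT libraries and the line is the mean of 3. Il13ra1 over Il2rg is higher in KO in each condition, and Il10rb over Il10ra is at -2.08 or lower with IFNg in both genotypes.

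Downstream of the receptors, 22 kinases, STATs and feedback inhibitors were counted. With LPS, 18 rose and 3 fell in KO cells and 19 rose and 3 fell in WT cells, against 57% and 53.3% of all genes tested called. The median log2 change was 1.90 in KO and 1.76 in WT cells, where that of all genes was -0.21 and -0.06. With IFNg, 18 rose and 3 fell in KO cells and 18 rose and 3 fell in WT cells, against 46% and 45.1%. With IL4, 11 rose and 2 fell in KO cells and 9 rose and 3 fell in WT cells, against 23.2% and 20.1%, with a median of 0.44 in KO and 0.16 in WT cells, where that of all genes was 0.00 in both. The inhibitor Socs3 rose by 9.65 in KO and 9.73 in WT cells with LPS, and by 8.14 in KO and 8.07 in WT cells with IFNg, on the log2 scale.

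Between genotypes, 8 of the 22 were higher and 3 lower in KO cells with LPS, 2 higher and 1 lower with IFNg, 8 higher and none lower with IL4, and none higher and 1 lower in control. That is 50% of the 22 with LPS, 13.6% with IFNg, 36.4% with IL4 and 4.55% in control, against 22.2%, 9.05%, 9.29% and 7.16% of all genes tested. The median log2 difference over the 22 was 0.10 with LPS, -0.01 with IFNg, 0.09 with IL4 and 0.05 in control. With IL4 the 4 with the smallest p were Usp18, Stat2 and Irf9, which act downstream of the type I IFN receptor, and Ptpn6, a phosphatase that dampens cytokine receptor signalling (log2 0.40, limma adjusted p = 3.8e-05). Usp18, an inhibitor that acts at IFNAR2, was at 1486 ± 19.7 in KO and 529 ± 21.9 in WT cells (SD, n = 3 each; log2 difference 1.49, limma adjusted p = 3e-15). Stat2 averaged 3873 in KO and 1841 in WT cells (log2 1.07, limma adjusted p = 4e-12), and Irf9 averaged 1939 in KO and 1186 in WT cells (0.71, 1.3e-09). Under the same treatment Ifnb1 was at or under the floor. Ifnar1 was lower in KO cells, by a call that was lost in edgeR and without any 1 of several replicates. The part of either gene in these differences was not tested. With LPS the largest called differences were those of Cish, a STAT5-induced inhibitor (log2 1.59, limma adjusted p = 0.0016), Irs2, the adaptor recruited by IL4Ralpha (1.06, 0.0086), and Ptpn2, a phosphatase of JAK1 and JAK3 (0.67, limma adjusted p = 9.9e-09).

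**Figure D5:**
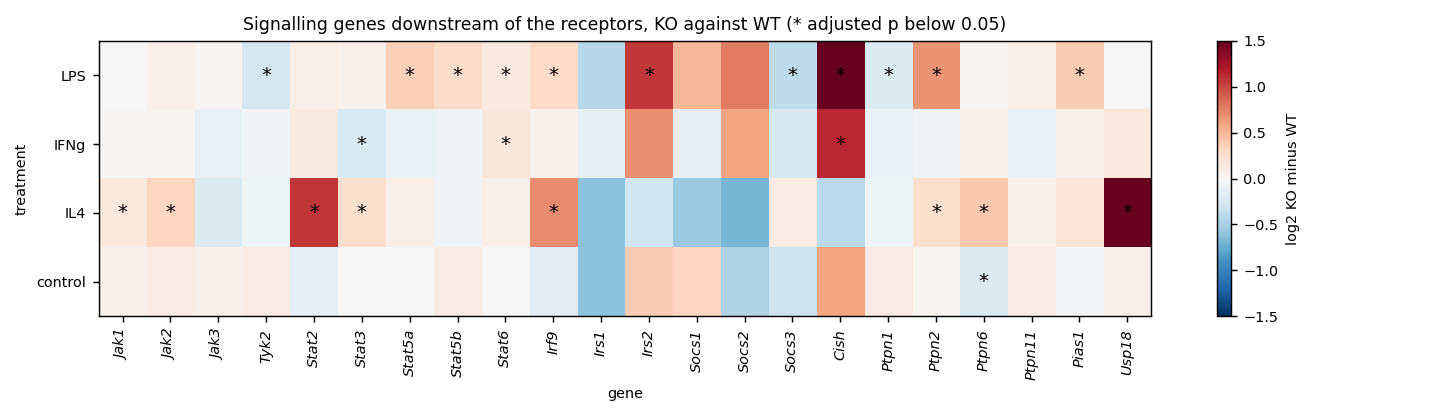
Log2 difference of KO minus WT for 22 signalling genes (columns) in each condition (rows), with red for higher and blue for lower in KO; colours end at 1.5 in either direction and stars mark an adjusted p below 0.05 from limma. The IL4 row holds 8 stars, all on red cells, and the control row holds 1.

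Other cytokine receptor chains were read from a list of 39, of which 36 passed the filter. With LPS 6 were higher and 7 lower in KO cells, with IFNg 8 higher and 1 lower, with IL4 8 higher and 1 lower, and in control 9 higher and 1 lower. That is 36.1% of the 36 with LPS, 25% with IFNg, 25% with IL4 and 27.8% in control. Of all genes tested, 22.2%, 9.05%, 9.29% and 7.16% were called in these conditions. The median log2 difference over the 36 was 0.06 with LPS, 0.06 with IFNg, 0.04 with IL4 and 0.02 in control. Il6ra, the IL6-binding chain, was lower in KO cells with LPS, at 126 ± 8.64 against 413 ± 28.7 in WT cells (SD, n = 3 each; log2 -1.70, limma adjusted p = 1.7e-14). Il15ra was at 228 ± 13.3 in KO and 116 ± 15.04 in WT cells with IL4 (log2 0.98, limma adjusted p = 9.1e-08). Csf2rb2, a receptor chain of IL3 in mice, was higher in KO cells in control (log2 0.51, limma adjusted p = 1.2e-07), and Tnfrsf1b, the TNF receptor 2 chain, was higher in KO cells with IFNg (log2 0.78, adjusted p = 2.9e-11). Ifnlr1, which pairs with Il10rb, had no read in KO LPS libraries and 7 reads over the WT LPS libraries.

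The genes whose pattern over the 8 group means was most like each of the 10 were found by the root mean square difference of centred log2 levels among 10904 genes. For Ifngr1 the nearest were Mrpl48 (0.08) and Park7 (0.12), where the median gene was at 0.52. The nearest were Atp2a2 for Ifngr2 (0.13), Sgk3 for Ifnar1 (0.13), Chic2 for Ifnar2 (0.10), Slc1a4 for Il4ra (0.14), Aoah for Il2rg (0.20), Crem for Il10ra (0.21) and Smad7 for Il10rb (0.12). Il13ra1 was nearest to Tap1 (0.24), and Ifnb1 had no gene as near, with Inhba first at 0.55. The median gene was at 1.83 for Il13ra1 and at 2.81 for Ifnb1, so distances cannot be compared directly between genes. Among the 10 genes themselves, Ifnar1 and Ifnar2 were each other's nearest, at 0.46, and so were Ifngr2 and Il10rb, at 0.38. The nearest among them to Ifngr1 was Il10rb, at 0.48.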

How the data were processed

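RNA was measured in 24 libraries of BMDMs. Per the submitters' processing notes, TopHat2 2.2.1, Cufflinks 2.2.1 and Cuffdiff were used with mm10 (GRCm38); the counting tool and annotation are not given in the sources used here. The authors deposited 1 table of normalised counts (signal), in which 100% of the values of each library were whole multiples of 1 factor within 0.05 reads, so whole reads were recovered. Gene positions came from GENCODE M21, which held 42462 of 43629 identifiers; every column was assigned to a sample by its name.

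Main test: limma 3.58.1 (R 4.3.3) on log2(value + 1), keeping genes that reached 1 in 3 libraries or more, with 1 mean per group over all 24 libraries and Benjamini-Hochberg adjustment over 18637 genes, in 13 comparisons. On the recovered reads, edgeR 4.0.16 called 3543 genes and DESeq2 1.42.0 called 3581 for KO against WT with LPS, against 4141 with limma. The limma step was tested on simulated data. Other alternatives were pseudocounts of 0.5 and 10, no filter or a filter of 10, median centring, only the groups compared, a replicate block, each replicate left out and, added after the data were seen, RPM. Python 3.11.15 with pandas 2.3.3 made the summaries.

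The 10 genes and all gene lists were chosen with earlier results of these data known. Some items of the lists are not reported here and were left out of their counts. Named beside the 10 genes and Cited2 are the genes most like each, up to 4 signalling genes with the smallest p, up to 4 other receptor chains with the largest called difference per comparison, and ligands with reads; Cish, Irs2 and the other neighbours and markers were named after their values were seen. KO LPS replicate 1 is the least precise library, with 80 reads of Ifngr1.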

Additional observations from a re-analysis of the deposited data

Results flagged for a closer look

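For 8 results the response to a treatment differed between KO and WT cells by a test of the difference itself, the interaction term in limma with adjusted p below 0.05. The values are the KO response minus the WT response on the log2 scale.

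With LPS, Ifngr2 differed by -0.53, with the smaller rise in KO cells, and Ifnar1 by -0.21, also with the smaller rise in KO cells. Ifnar1 stood at the threshold and was lost under 13 of its alternatives. Il10ra differed by 0.63, with the larger rise in KO cells, and by 0.76 without the shallow KO LPS replicate 1. Ifnb1 differed by 2.83, on a scale set by the pseudocount because control libraries held no read, and the count models did not call it.

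With IFNg, Ifnar2 differed by 0.37, with the larger rise in KO cells. Il2rg differed by -0.45, with the smaller rise in KO cells, and Il10rb by 0.47, with the smaller fall in KO cells. With IL4, Ifnar2 differed by 0.36, where the WT change itself was not past the threshold. Both Ifnar2 values use the same control libraries, so they are not separate results. KO minus WT for Ifnar2 was -0.32 in control, 0.05 with IFNg and 0.04 with IL4, and only control was past the threshold among these. Groups of 3 libraries are too small for a check of single outlying samples.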

How the results depend on the processing

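Of 130 values (10 genes in 13 comparisons), 82 were called, and 65 of these kept call and direction in every alternative run. Over 2260 alternative values, 40 lost a call, 26 gained one and 5 turned direction while called, all 5 with RPM (recovered reads scaled to the same library total): Il10rb with LPS (-0.28 in KO, -0.33 in WT), Ifngr2 with LPS in KO cells (-0.22) and Ifngr2 with IFNg (-0.24 in KO, -0.10 in WT). A further 30 changed sign without being called in either fit. RPM lowered the median gene with LPS and IFNg, so small rises there rest on the scaling.

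Members called changed by over 1.5 times for the LPS interaction (7 by RPM, against 4), KO against WT with LPS (4 in the 6 libraries compared, against 8) and the IL4 interaction (3 by DESeq2 and 3 in the groups compared, against 1). Leaving out 1 replicate gave 1 to 2 genes for the IL4 interaction, the upper value without KO control replicate 3, KO IL4 replicate 2 or WT control replicate 1. Over all genes, KO against WT with LPS gave 1021 and the LPS interaction 862 in the groups compared, against 4141 and 1639. KO against WT gave 2533 by edgeR and 2588 by DESeq2 with IFNg, against 1686, and 2862 and 2722 with IL4, against 1731. DESeq2 called 844 genes for the IFNg interaction, against 466, and 1169 for the IL4 interaction, against 672. The cause was not tested.

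No consistent pairing of libraries by replicate number was seen. Correlations of same-numbered deviations ran from -0.35 to 0.39, and in none of 10 comparisons were all 3 above 0.1. Not every library correlated best with its own number. With 3 libraries a group, this check cannot exclude a pairing. With the replicate block, 6 genes were called for KO against WT in control, against 7, and 3 for the LPS interaction, against 4, Ifnar1 being the gene lost in both; the other 11 counts were equal. Depth limits Ifnb1 most, with 5 to 47 reads in WT LPS libraries.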
